A study of Arabidopsis thaliana with 6 samples.

Results

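H3K27me3 in wild-type Arabidopsis seedlings was described from 3 of the 6 libraries of the series: anti-H3K27me3 ChIP replicate 1, anti-H3K27me3 ChIP replicate 2 and 1 input library. The other 3 libraries, from the brm mutant, were not used. All 3 libraries came from seedlings 14 days old of the Col wild type, grown on MS agar with no further treatment and cross-linked with formaldehyde. The ChIP libraries were made with an antibody raised against H3K27me3 (07-449, Millipore), and the input library with no antibody. The methods describe the ChIP replicates as independent biological samples, while the input had no replicate, so its spread was taken to be that of the ChIP libraries. Whole seedlings were used, so a mark carried by few cells and a weak mark carried by many cells cannot be told apart. RNA was not measured in these libraries, so the labelled tissue was not checked against marker transcripts. The members described are the genes of the TAIR10.1 annotation: 34488 of 37899 nuclear genes had at least 10 distinct input reads and were tested.

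The mark H3K27me3, a histone H3 that carries methyl groups on lysine 27, is made by Polycomb proteins. Polycomb Repressive Complex 2 (PRC2) deposits it, through the methyltransferases CLF and SWN in vegetative plants and MEA in seeds, and it accompanies stable silencing of genes that are not in use in a given organ or stage. Trithorax group proteins, among them the chromatin remodeler BRM, act against Polycomb silencing. In Arabidopsis the mark typically covers single genes rather than long intergenic regions.

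The deposited files held 8563827 reads in ChIP replicate 1, 9051298 reads in ChIP replicate 2 and 6342835 reads in the input. Reads that shared a start and strand were counted once, since they may be copies of 1 fragment. This left 2385590 reads (27.9%) in replicate 1, 2115598 reads (23.4%) in replicate 2 and 4369915 reads (68.9%) in the input. The level of a gene is the number of distinct reads over its span for every 1000000 distinct reads of its library (RPM). The ratio to input is (RPM in ChIP + 0.5)/(RPM in input + 0.5), given for replicate 1 and then replicate 2. Both ratios of a gene share the same input value, so their agreement shows the spread of the ChIP only.

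H3K27me3 was found on a minority of genes. Of the 34488 genes tested, 6320 (18.3%) were enriched, meaning at least 2-fold over input in both replicates with an adjusted p under 0.05 in the quasi-likelihood test of edgeR. Another 21924 genes (63.6%) were depleted, at 0.5 of input or less in both replicates with the same limit on the adjusted p, and 6244 genes were neither. The median ratio of the enriched genes was 4.70 and 4.91, against 0.193 and 0.184 for the genes that were not enriched. The calls were made on these ratios, so a gap between these medians is fixed by that choice. The fold threshold alone called 6322 genes enriched, so the enriched call rests almost wholly on the ratio. With all distinct reads of a library as its size, 13.6% of the genes had a ratio between 0.5 and 2 in each replicate. That share depends on the scaling, described below. At the high end, 3598 genes were at least 4-fold and 760 genes at least 8-fold over input in both replicates, and the highest ratios were 18.9 in replicate 1 and 26.5 in replicate 2. The enriched spans covered 10.3 Mb, or 8.66% of the genome, and held 46.4% and 49.7% of the distinct ChIP reads, against 9.02% of the input reads. The depleted spans covered 55.5 Mb and held 7.78% and 7.25% of the ChIP reads, against 51.4% of the input reads.

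The replicates ordered the genes alike. Pearson's r of the log2 ratios was 0.941 across the 34488 genes and 0.914 across the 6320 enriched genes, a description across genes, which are not independent replicates and share 1 input. The log2 ratios of an enriched gene differed between replicates with an SD of 0.28, against 0.78 for genes that were not enriched. A tested gene had a median of 11 distinct reads in ChIP replicate 1, 9 in ChIP replicate 2 and 76 in the input. An enriched gene had a median of 146 reads, 138 reads and 55 reads. In all, 735 genes reached 2-fold in one replicate and not in the other.

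The count of depleted genes depended on the scaling more than the count of enriched genes did. With total reads as the library size, reads concentrated on marked genes lower the share left for all others, so the median log2 ratio of all genes was -2.10. With TMM factors, which centre the libraries on their common genes, that median was -0.37, and 10071 genes were enriched and 4261 depleted, so that enriched genes made up 70.3% of the calls, against 22.4% with total reads. With the size factors of DESeq2 the median was -0.16, 9118 genes were enriched and 83 depleted, and enriched genes made up 99.1% of the calls. All 6320 genes enriched with total reads were enriched under both of these scalings. Both scalings shift the ratios upward, so this overlap was largely fixed in advance and does not show that the call is stable. A depleted gene is thus one with fewer reads than its share in the input, and its distance from the median of all genes is smaller than its ratio.

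**Figure D1:**
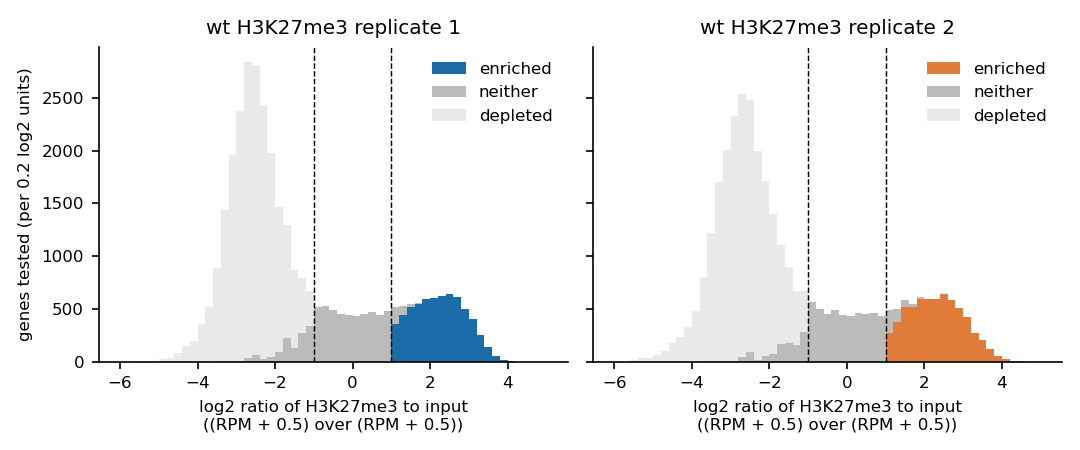
Distribution of the log2 ratio of H3K27me3 ChIP to input over the 34488 genes tested, for replicates 1 and 2 (x axis, log2 of the ratio; y axis, number of genes), coloured by call, with dashed lines at the 2-fold thresholds. Most genes form a broad group with a median of -2.10 under total-read scaling, which lies at -0.37 with TMM factors, and the 6320 enriched genes form a smaller group on the right.

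The genes with the largest fitted change over input, among those with at least 30 input reads and 500 bp, had annotations of several kinds. CUC2 (AT5G53950, chr5:21901704-21903854), a NAC transcription factor that sets organ boundaries, had 245 and 297 RPM in the ChIP replicates, against 16.02 RPM in the input. Its fitted log2 fold change was 4.08 ± 0.25 (SE; edgeR adjusted p = 7.73e-56). AHL22 (AT2G45430, chr2:18727504-18729272) encodes an AT-hook DNA-binding protein and had 229 and 271 RPM in ChIP, against 14.2 RPM in the input, a log2 fold change of 4.13 ± 0.26. Both ChIP libraries lay far above the input at both genes, with ratios of 14.9 and 18 at CUC2 and of 15.6 and 18.5 at AHL22.

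A second AT-hook gene, AHL19 (AT3G04570), had 199.95 and 286 RPM in ChIP, against 15.3 RPM in the input. ABI4 (AT2G40220), an AP2-type transcription factor of abscisic acid and sugar signalling, had 156 and 206 RPM in ChIP, against 11.7 RPM in the input. PHT1;3 (AT5G43360), a phosphate transporter, had 161 and 195 RPM in ChIP, against 10.98 RPM in the input. At all 3 genes replicate 2 was the higher of the ChIP libraries and the input was far below both.

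The largest fitted change of the 12 was at AT2G22180 (chr2:9428743-9430141), annotated as a hydroxyproline-rich glycoprotein, with 136 and 183 RPM in ChIP and 8.24 RPM in the input (log2 fold change 4.26 ± 0.28). AT4G01985 (chr4:866151-868253), an uncharacterized protein, had 245 and 430 RPM in ChIP, against 22.0 RPM in the input, so that its ChIP libraries differed from each other more than at the other 11 genes. AT4G12500, a lipid-transfer protein family member, had 108 and 113 RPM in ChIP, against 7.09 RPM in the input. The remaining genes of the 12 were AT5G65340, AT1G44191, AT5G62340 and AT1G47610, with ratios from 12.2 to 14.6 in replicate 1 and from 16.3 to 19.1 in replicate 2. In all 12 genes both ChIP values exceeded the input value more than 10-fold.

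The 4 protein-coding genes with the lowest fitted change had no distinct read in either ChIP library. AT5G16200, annotated as similar to a 50S ribosomal protein, had 62 input reads (14.2 RPM), and a floor of 3 reads per ChIP library makes it at least 11.3-fold lower in ChIP replicate 1 and at least 10.005-fold lower in ChIP replicate 2. AT4G38092 had 61 input reads, AT1G01170 had 50 and AT5G10890 had 49. These bounds cover counting error only and rest on total-read scaling.

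Promoter windows of 300 bases, from 250 bases before to 50 bases after the annotated start, were read from the RefSeq assembly TAIR10.1 for 3 of these highest genes and for 1 of the lowest. They are shown because sequence elements near the start have been linked with Polycomb recruitment in Arabidopsis. Capitals mark the telobox AAACCCTA, the GA repeat GAGAGAGA and the G-box CACGTG, each searched on both strands, with overlapping repeats joined. The sequences run 5′ to 3′ on the strand of the gene.
CUC2 promoter (chr5:21903805-21904104, - strand): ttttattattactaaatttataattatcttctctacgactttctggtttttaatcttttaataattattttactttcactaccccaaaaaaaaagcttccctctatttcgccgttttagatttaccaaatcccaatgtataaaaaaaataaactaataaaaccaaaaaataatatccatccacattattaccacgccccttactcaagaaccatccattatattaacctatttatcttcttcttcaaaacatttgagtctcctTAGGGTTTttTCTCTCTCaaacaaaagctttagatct
AT4G01985 promoter (chr4:868204-868503, - strand): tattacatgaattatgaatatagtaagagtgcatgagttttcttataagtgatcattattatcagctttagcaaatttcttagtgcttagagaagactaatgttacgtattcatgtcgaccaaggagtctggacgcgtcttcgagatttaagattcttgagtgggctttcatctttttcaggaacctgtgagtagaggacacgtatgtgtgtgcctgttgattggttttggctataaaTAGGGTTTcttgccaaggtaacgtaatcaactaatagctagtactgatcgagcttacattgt
AHL22 promoter (chr2:18727254-18727553, + strand): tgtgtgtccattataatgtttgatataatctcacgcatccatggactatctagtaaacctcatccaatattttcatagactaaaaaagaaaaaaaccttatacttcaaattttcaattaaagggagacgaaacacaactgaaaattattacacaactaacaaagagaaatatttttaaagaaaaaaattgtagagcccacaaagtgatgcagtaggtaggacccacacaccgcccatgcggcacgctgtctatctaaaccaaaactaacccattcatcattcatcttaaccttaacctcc
AT5G10890 promoter (chr5:3435238-3435537, - strand): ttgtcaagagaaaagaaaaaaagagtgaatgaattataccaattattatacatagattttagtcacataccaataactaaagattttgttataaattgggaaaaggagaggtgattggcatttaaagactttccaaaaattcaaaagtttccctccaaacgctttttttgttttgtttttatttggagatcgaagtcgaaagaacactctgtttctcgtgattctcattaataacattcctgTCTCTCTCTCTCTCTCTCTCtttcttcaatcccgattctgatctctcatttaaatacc
The CUC2 window held both a telobox and a GA repeat, and the AT4G01985 window a telobox. These windows were picked because they hold a motif. The AHL22 window held none of the 3 motifs, as did those of 7 others of the 12 highest genes. The AT5G10890 window, of a gene with no ChIP read, held a GA repeat, and those of the other 3 lowest genes held none.

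Over all promoters the differences were small. The telobox was in 8.22% of 5400 enriched protein-coding windows, against 6.04% of 17046 depleted windows and 6.26% of all 26775 windows. The GA repeat was in 8.63% of enriched and 8.51% of depleted windows, against 8.37% of all windows. The G-box was in 6.59% of enriched and 8.52% of depleted windows, against 7.76% of all windows. Of the genes with a telobox 26.5% were enriched, against 19.7% of the genes without one. The median GC content was 30.7% in enriched and 32.7% in depleted windows, against 32.0% in all windows, and its part in the motif shares was not tested. A match describes letters in a window and says nothing on binding.

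**Figure D2:**
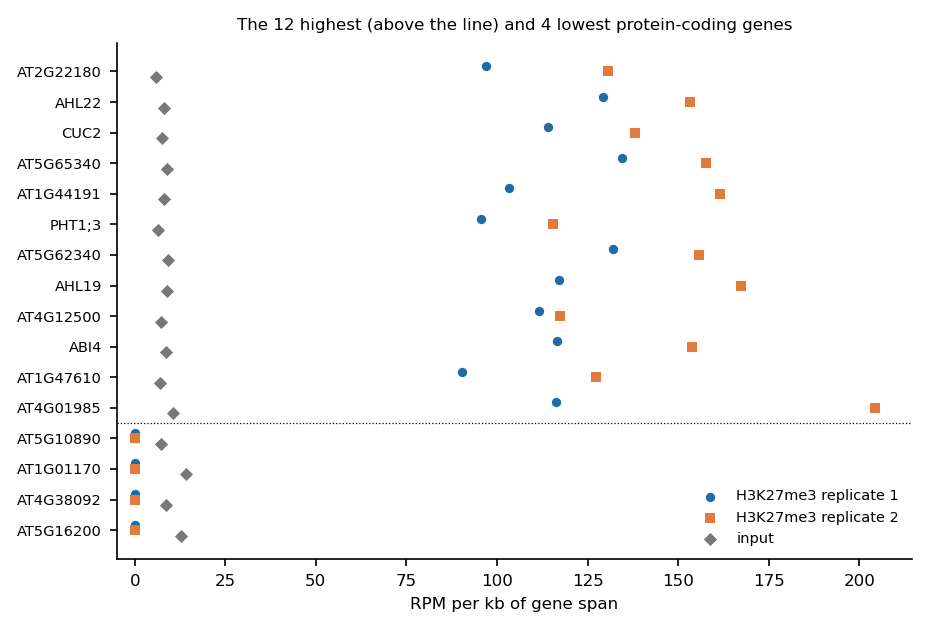
Level of H3K27me3 ChIP replicates 1 and 2 and of input (x axis, RPM per kb of gene span, linear scale) at the 12 protein-coding genes with the largest and the 4 with the lowest fitted change over input. At the 12 highest genes both ChIP points lie more than 10-fold right of the input point, and at the 4 lowest genes both ChIP libraries are at 0.

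The enriched share was larger among regulators of development than among all genes. Of 18 lists of transcription factor families, 15 had a larger enriched share than the 18.3% of all genes. The lists were matched on annotated symbols and product names, so family members named otherwise can be missing from them. The median log2 ratio was 2.79 and 2.73 for YABBY, 2.89 and 2.97 for WOX and 3.04 and 2.88 for floral organ identity genes, against -2.09 and -2.12 for all genes tested. All 6 YABBY genes, which specify the lower side of lateral organs, were enriched, with AFO (AT2G45190, also called FILAMENTOUS FLOWER) at 205 and 220 RPM in ChIP and 25.6 RPM in the input, and YAB2 at ratios of 6.47 and 5.78. WOX homeobox genes were enriched in 10 of 13 cases. WUS (AT2G17950), which maintains the stem cells of the shoot meristem, had 183 and 211 RPM in ChIP, against 19.0 RPM in the input. WOX13 was among the 3 members depleted with total reads, with 2.93 and 1.42 RPM in ChIP and 16.2 RPM in the input. None of the WOX genes was depleted with TMM factors.

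Of the 8 KNOX homeobox genes 5 were enriched and 3 depleted. STM (AT1G62360), which keeps meristem cells undifferentiated, had 303 and 311 RPM in ChIP, against 28.6 RPM in the input. The other class I genes KNAT1, KNAT2 and KNAT6 and the class II gene KNAT7 were enriched as well, at ratios from 5.18 to 7.33. The class II genes KNAT3, KNAT4 and KNAT5 were depleted with total reads, 2 of the 3 with TMM factors and none with the size factors of DESeq2. KNAT3 had 1.68 and 2.36 RPM in ChIP, against 27.2 RPM in the input.

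Of the 14 floral organ identity genes 13 were enriched. They include SEP3 (AT1G24260), a MADS-box factor needed for petals, stamens and carpels, with 255 and 234 RPM in ChIP, against 20.6 RPM in the input (log2 fold change 3.57 ± 0.24, edgeR adjusted p = 7.72e-46). AP1 (AT1G69120), a MADS-box factor of floral meristem and sepal identity, had 411 and 370 RPM in ChIP, against 38.4 RPM in the input. The exception was AP2, which is not a MADS-box gene, with 3.35 and 3.31 RPM in ChIP and 24.9 RPM in the input. Over the whole MADS-box family 59 of 118 tested genes were enriched and 34 depleted with total reads, or 3 depleted with TMM factors.

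Larger families held enriched and depleted members side by side with total reads. Of the MYB genes 23 were depleted with total reads, 3 with TMM factors and 0 with the size factors of DESeq2. The other families given here likewise had fewer depleted genes with TMM factors and none with the size factors of DESeq2. MYB genes were enriched in 76 of 115 cases (median log2 ratio 1.86 and 1.81), LBD genes in 23 of 40 and WRKY genes in 34 of 67. NAC genes were enriched in 53 of 114 cases, AP2/ERF genes in 46 of 99, C2H2 zinc finger genes in 43 of 94 and genes of the homeobox list in 50 of 111. The homeobox list takes in genes annotated as homeodomain-like, such as TDF1. It also holds genes of the WOX and KNOX lists, such as WOX7 and KNAT3, so it is not 1 family. MYB41 (AT4G28110), a factor of cuticle and suberin formation, had 125 and 139 RPM in ChIP, against 10.5 RPM in the input, while MYB73 had 0.838 and 1.42 RPM in ChIP, against 18.5 RPM in the input. WRKY62, a defence regulator, had 106 and 130 RPM in ChIP, against 10.07 RPM in the input, while WRKY46 had 1.26 and 0.473 RPM in ChIP, against 18.3 RPM in the input. SUP, a zinc finger gene that limits stamen number, had ratios of 13.1 and 13.1, and LBD40 of 10.3 and 13.0. The MYB and WRKY genes compared here were picked by rank and call, so their places on opposite sides of the input are fixed by that choice.

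Families with fewer enriched members were bHLH with 54 of 132, TCP with 6 of 16 and bZIP with 14 of 68. The medians of the bHLH and TCP lists were below 0 with total reads and above 0 with TMM factors. The TCP gene TCP12, which represses branching, had 282 and 257 RPM in ChIP, against 32.5 RPM in the input, and TCP3 had 2.10 and 1.89 RPM in ChIP, against 23.6 RPM in the input. Below the share of all genes were GRAS with 4 of 33, SPL with 2 of 13 and ARF with none of 20. Levels differed among the few enriched members. SHR (AT4G37650), a GRAS factor of root radial patterning, had 214 and 334 RPM in ChIP, against 22.2 RPM in the input, and SPL8, which acts in anther development, had 215 and 326 RPM in ChIP, against 23.1 RPM in the input. SPL4, which promotes flowering, was just at the threshold, with 34.8 and 30.3 RPM in ChIP, against 14.9 RPM in the input, and was not called with all reads, without the read shift or with DESeq2 on total reads. The ARF list, transcription factors of the auxin response, had 18 of 20 genes depleted under total-read scaling and 3 with TMM factors, with ARF19 at 8.38 and 3.78 RPM in ChIP, against 52.6 RPM in the input.

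Seed genes carried the mark in these seedlings. Of 7 regulators of seed maturation 5 were enriched, and of 20 seed storage and oleosin genes 15. ABI3 (AT3G24650), a B3 transcription factor that drives maturation, had 376 and 444 RPM in ChIP, against 39.1 RPM in the input. LEC2, which starts embryo maturation, had 245 and 211 RPM in ChIP, against 24.5 RPM in the input. CRU3 (AT4G28520), a 12S cruciferin storage globulin, had 261 and 346 RPM in ChIP, against 23.6 RPM in the input, and SESA2, a 2S albumin, had 85.5 and 122 RPM in ChIP, against 6.18 RPM in the input. The oleosin family gene AT2G25890, from the family that coats oil bodies, had 99.8 and 132 RPM in ChIP, against 5.72 RPM in the input. ABI5, a bZIP factor of abscisic acid signalling in seeds, was depleted with 5.45 and 7.56 RPM in ChIP and 28.4 RPM in the input, and its fitted log2 change was 0.015 with the size factors of DESeq2.

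The Polycomb genes themselves differed from one another. Of 17 genes for Polycomb subunits and partners 4 (23.5%) were enriched, near the 18.3% of all genes, and 13 were depleted, where 63.6% of all genes were, or 3 with TMM factors. MEA (AT1G02580), the PRC2 methyltransferase of the seed, had 272 and 254 RPM in ChIP, against 38.0 RPM in the input, and EMF1, a plant-specific silencing protein, had 243 and 241 RPM in ChIP, against 51.9 RPM in the input. VIN3, a partner of PRC2 in the response to long cold, had 140 and 138 RPM in ChIP, against 27.2 RPM in the input. FIS2, a homologue of EMF2 that acts in the seed, was lower, at 73.8 and 72.3 RPM in ChIP, against 33.9 RPM in the input. CLF (AT2G23380) had 5.45 and 7.09 RPM in ChIP, against 47.6 RPM in the input, and EMF2 had 5.45 and 4.73 RPM in ChIP, against 54.9 RPM in the input. The 2 genes act in PRC2 of vegetative tissue. No gene of the 12 trithorax group genes was enriched, and 11 were depleted under total-read scaling and 2 with TMM factors, against 18.3% enriched and 63.6% depleted among all genes with total reads. A list of 12 genes allows little comparison of shares. BRM itself had 15.51 and 11.8 RPM in ChIP, against 103 RPM in the input.

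Genes of auxin synthesis and transport were mostly enriched. YUCCA genes, which encode the flavin monooxygenases of auxin synthesis, were enriched in 8 of 11 cases, with YUC2 at 192 and 217 RPM in ChIP and 24.7 RPM in the input, and YUC3 at 2.93 and 4.25 RPM in ChIP and 22.2 RPM in the input. PIN auxin carriers were enriched in 4 of 7 cases. PIN5 had 191 and 206 RPM in ChIP, against 20.1 RPM in the input, and PIN3, which acts in bending growth, had 6.29 and 5.67 RPM in ChIP, against 33.6 RPM in the input. Aux/IAA repressors of the auxin response were enriched in 12 of 24 cases, among them IAA20 at ratios of 6.83 and 7.48 and IAA7 at ratios of 5.19 and 5.55.

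Families of small secreted peptides differed in their enriched share. CLE peptide genes were enriched in 21 of 31 cases and RALF peptide genes in 11 of 32. CLV3 (AT2G27250), the peptide that limits the shoot stem cell pool, had 72.9 and 78.5 RPM in ChIP, against 7.09 RPM in the input, and CLE5 had 79.6 and 78.0 RPM in ChIP, against 4.81 RPM in the input. CLE25 had ratios of 0.0970 and 0.0537. Defensin-like genes were enriched in 55 of 181 cases, with the largest fitted change at LCR67 at ratios of 10.09 and 10.2, and their median was below 0 with total reads and above 0 with TMM factors.

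In specialised metabolism the enriched share was above the 18.3% of all genes for terpene synthase, cytochrome P450 and UGT genes and near it for GST genes (16.7%). With TMM factors 24 of 54 GST genes were enriched, above the 29.2% of all genes. With the size factors of DESeq2 the count was 21 of 54, above the 26.4% of all genes. Terpene synthase genes were enriched in 30 of 37 cases, cytochrome P450 genes in 103 of 239 and peroxidase genes in 45 of 73. TPS04, which acts in synthesis of a volatile terpene, had 359.7 and 321 RPM in ChIP, against 44.2 RPM in the input, whereas GA2, which acts in synthesis of the growth hormone gibberellin, had 2.10 and 0.945 RPM in ChIP, against 39.1 RPM in the input. CYP86A1 (AT5G58860), a fatty acid hydroxylase of root suberin, had 239 and 321 RPM in ChIP, against 23.8 RPM in the input, and CYP78A5, which promotes organ growth, had 207 and 262 RPM in ChIP, against 21.7 RPM in the input. UGT genes were enriched in 33 of 128 cases, with UGT71B8 at ratios of 10.97 and 13.4, and GST genes in 9 of 54, with GSTU15 at ratios of 9.95 and 9.51. The medians of both lists were below 0 with total reads and above 0 with TMM factors.

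Pectin enzymes and their inhibitors were enriched in 121 of 235 cases, XTH genes in 14 of 29 and expansins in 15 of 34. VGD1 (AT2G47040), a pectin methylesterase of the pollen tube, had 222 and 261 RPM in ChIP, against 19.0 RPM in the input. EXPA7, an expansin of root hairs, had 130 and 135 RPM in ChIP, against 12.6 RPM in the input, and EXPA10 had 1.68 and 1.42 RPM in ChIP, against 18.8 RPM in the input. XTH26 had ratios of 9.45 and 10.6. F-box genes, which encode substrate receptors of ubiquitin ligases, were the largest of all 46 lists, and 325 of 635 were enriched, with the largest fitted change at AT5G25290 at ratios of 13.0 and 12.7.

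For receptor genes the comparison with all genes depended on the scaling. With total reads NLR disease resistance genes were enriched in 24 of 150 cases and cysteine-rich receptor kinase genes (CRK) in 5 of 36. Both shares were below the 18.3% of all genes. The highest of these genes was CRK4 with ratios of 6.33 and 5.99, and the NLR gene AT4G11170 had ratios of 5.67 and 5.77. The medians of both lists were below 0 with total reads and above 0 with TMM factors. With TMM factors 58 NLR genes and 15 CRK genes were enriched, in both lists above the 29.2% of all genes. With the size factors of DESeq2 the counts were 52 and 13, in both lists above the 26.4% of all genes.

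Genes of basic cell functions and of photosynthesis were rarely enriched. None of 36 proteasome genes and none of 60 photosystem and light-harvesting genes was enriched. Spliceosome genes were enriched in 1 of 59 cases, pentatricopeptide repeat genes in 5 of 277, ribosomal protein genes in 20 of 340 and tRNA synthetase genes in 7 of 64. The median log2 ratio was -2.82 and -2.96 for proteasome and -2.51 and -2.52 for ribosomal protein genes, below the -2.09 and -2.12 of all genes tested. The proteasome subunit gene PAD1 had 1.26 and 0.945 RPM in ChIP, against 23.3 RPM in the input, and Lhca5 of the light-harvesting antenna had 1.26 and 0.945 RPM in ChIP, against 15.6 RPM in the input. The enriched spliceosome gene, AT4G07940, had ratios of 2.39 and 2.89. The ribosomal exception with the largest fitted change was AT5G40040, an acidic ribosomal protein of the large subunit, with 55.8 and 92.6 RPM in ChIP, against 5.26 RPM in the input. Among histones 7 of 47 genes were enriched, including MGH3, a histone H3 of the male gamete, with 88.0 and 91.7 RPM in ChIP, against 13.3 RPM in the input, and HIS1-3, a drought-induced linker histone, with 91.0 and 93.6 RPM in ChIP, against 11.9 RPM in the input. Among the 46 lists, 18 had at least 50% of their tested genes enriched, 32 lay above and 14 below the share of all genes, and 4 had no enriched gene. No test was run on a list, since the lists were chosen with results of these data known.

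**Figure D3:**
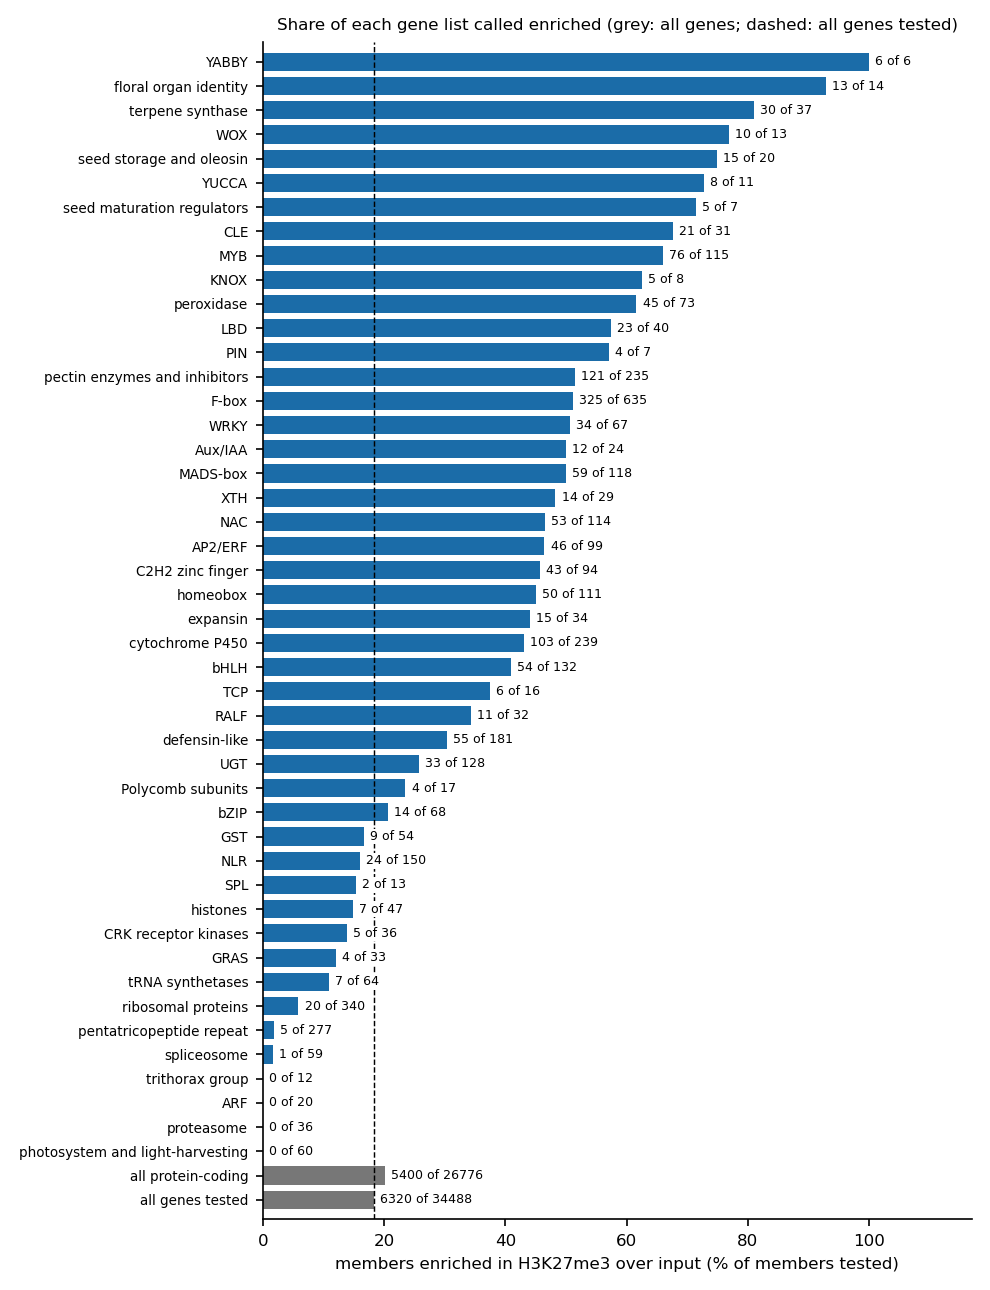
Share of tested genes enriched for H3K27me3 over input (x axis, percent) in 46 gene lists, with the number of enriched and tested genes at each bar and grey bars for all protein-coding genes and all genes, and a dashed line at the 18.3% of all genes tested. YABBY (100%), floral organ identity (92.9%) and terpene synthase genes (81.1%) lead, and 4 lists at the other end have no enriched gene.

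The enriched share differed between the annotation classes. Of 26776 protein-coding genes tested 5400 (20.2%) were enriched, against 135 of 3424 pseudogenes (3.94%). Transcribed pseudogenes were enriched in 216 of 798 cases (27.1%). Of the long non-coding RNA genes 430 of 2685 (16.02%) were enriched. Without those that overlap a protein-coding gene, whose reads cannot be told apart from it, the share was 357 of 1489 (24.0%). No antisense RNA gene of 32 and no tRNA gene of 21 was enriched. All 32 antisense RNA genes overlap a protein-coding gene, so their reads cannot be told apart from it either. Most tRNA genes were too short to collect 10 input reads, so 21 of 625 could be tested.

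Of 326 miRNA genes 80 were tested and 21 (26.3%) were enriched. Excluding overlap with protein-coding genes, the count was 20 of 54 (37.04%). The following 3 were named after their values were seen. MIR858b (AT1G09213) had 24.7 and 25.1 RPM in ChIP, against 2.29 RPM in the input. MIR165b, whose miRNA targets class III homeodomain leucine zipper genes, had 27.7 and 13.7 RPM in ChIP, against 3.43 RPM in the input, so its replicates differed. MIR157d, whose miRNA targets SPL genes, had 23.1 and 24.6 RPM in ChIP, against 3.20 RPM in the input. With 10 to 15 input reads at each gene, these ratios are less precise than those of the genes above.

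Along the chromosomes the mark was low around the centromeres. Pericentromeres were set from the annotation as 5 intervals of 16.9 Mb in all. In 155 of their bins of 100 kb with at least 1000 input reads, the median ratio was 0.237 and 0.210, against 1.01 and 1.01 in 972 bins of the arms and 0.858 and 0.941 in 50 bins of the chromosome ends. Of the arm bins 49.4% were above input in both replicates, against 5.16% of the pericentromeric bins. The enriched share of genes followed the same order, with 137 of 3324 (4.12%) enriched in pericentromeres, 5901 of 29500 in arms and 16.9% at the ends. With TMM factors the median log2 ratio was -0.31 in pericentromeric bins, 1.92 in arm bins and 1.76 at the ends. A scaling factor shifts all bins of a library nearly alike, so the order of the parts under TMM was fixed in advance.

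The enriched share was lower in pericentromeres within both protein-coding genes and pseudogenes, while the median protein-coding gene was not lower there. The median log2 ratio of protein-coding genes was -2.04 and -2.01 in pericentromeres, -2.13 and -2.17 in arms and -2.21 and -2.22 at the ends. Of their protein-coding genes 94 of 770 (12.2%) were enriched, against 20.6% in the arms, and of their pseudogenes 17 of 2174 (0.782%), against 117 of 1230 (9.51%) in the arms. Reads had to map to 1 place, so repeats contribute little to either library there. The part of mappability in these shares was not tested. Over the 5 chromosomes the enriched share of protein-coding genes varied little, between 19.6% on chromosome 3 and 20.7% on chromosome 1.

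In 3 neighbouring bins on chromosome 2, at chr2:3200001-3500000, the input stood out. It had 23254, 42820 and 49431 distinct reads, against a median of 3842 per bin, and the ratios were between 0.0568 and 0.0655 in replicate 1 and between 0.0386 and 0.0495 in replicate 2. The 3 bins held 2.64% of the input reads, against 0.155% and 0.111% of the ChIP reads. Of the 174 tested genes there none was enriched and 173 were depleted. The arms of chromosome 2 had a ratio of 0.893 and 0.889 with these bins and of 1.03 and 1.03 without them.

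**Figure D4:**
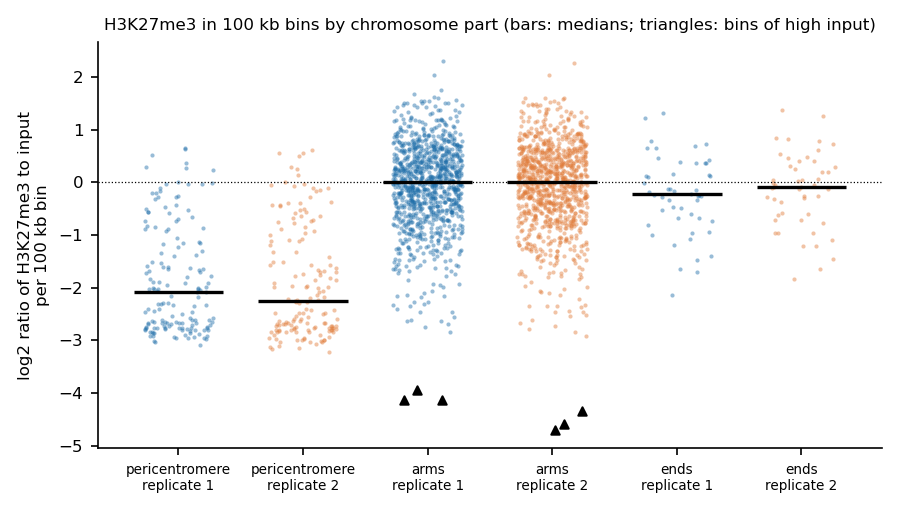
Ratio of H3K27me3 ChIP to input in bins of 100 kb in pericentromeres, arms and ends of the 5 chromosomes for replicates 1 and 2 (y axis, log2 of the ratio under total-read scaling), with bars at the medians and triangles for the 3 bins of high input. Pericentromeric bins have medians of 0.237 and 0.210 and arm bins of 1.01 and 1.01 as ratios. With TMM factors all bins shift up nearly alike, which leaves their order as it is by construction.

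Enriched genes stood next to each other more often than the other genes did. Of the enriched protein-coding genes 64.3% had an enriched neighbour on at least one side, against 27.1% of the genes that were not enriched. Sheared fragments can carry reads over a gene border, and their part in this was not tested. The enriched protein-coding genes formed 3162 runs, of which 1928 held 1 gene and 118 held 5 or more, with 736 genes. Where at least 1 of a pair of neighbours was enriched, both were in 28.7% of pairs on the same strand, 20.4% of divergent pairs and 25.5% of convergent pairs. The share of enriched genes was 20.04% on the + strand and 20.3% on the - strand.

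The longest runs held 18 and 16 genes, and the contents of the runs were described after their values were seen. A run of 18 genes at chr3:7715348-7772357 (57.0 kb) held mostly cysteine-rich repeat secretory proteins of the DUF26 family, from AT3G21900 to AT3G22060, with a median ratio of 6.54 and 7.26. A run of 16 genes at chr4:8716504-8813593 (97.1 kb) held the triterpene synthase gene PEN1 with BARS1, cytochrome P450 genes of the CYP702A and CYP705A groups and the acyltransferase gene BIA1. Its median ratio was 6.97 and 6.91, and PEN1 had 383 and 355 RPM in ChIP, against 49.0 RPM in the input. A run of 9 genes at chr4:10729966-10769303 held chitinase-type glycosyl hydrolases, including ChiC, with the higher median ratio of 10.3 and 12.6. Another run of 9 genes, at chr1:18987702-19016205, held genes of unlike annotation, among them WIP5 and LPAT3, with a median ratio of 5.41 and 4.75. The bin of 100 kb with the highest ratio of the genome, 4.94 and 4.82, covered 13 of the 16 genes of the PEN1 run, which were the enriched ones among its 18 protein-coding genes. Genes of 1 family share sequence, and reads that map to more than one of them were not retained by the authors.

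Short genes and genes with few introns were enriched more often. In 5 classes of equal size by length, the enriched share of protein-coding genes was 34.5% at up to 1197 bp, 26.3% up to 1821 bp, 18.1% up to 2434 bp, 13.3% up to 3337 bp and 8.57% above. It was 31.8% for genes without introns, 26.4% with 1 to 2 introns, 19.1% with 3 to 5 and 8.33% with 6 or more. Introns and length go together, so the comparison was repeated within length. From 1001 to 2000 bp, 32.2% of genes without introns were enriched, against 14.1% of genes with 6 or more, and from 2001 to 4000 bp the shares were 14.7% and 9.45%. Some of the marked lists are short genes, with median lengths of 829 bp for CLE and 911 bp for seed storage and oleosin genes, against 1936 bp for all genes tested. The lists with the largest enriched shares are longer, with 2780 bp for YABBY, 3285.5 bp for floral organ identity and 3312 bp for terpene synthase genes.

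Along the enriched genes the ratio was not even. These genes were called from reads over the span, so a higher ratio within the span than beside it is fixed by that choice and is given as a description. Over 5187 enriched protein-coding genes of at least 500 bp, the ratio was 2.57 and 2.48 at 801 to 1000 bp upstream, 4.92 and 5.03 in part 1 of 10 equal parts of the span, and reached 6.19 and 7.01 in part 4. It was 3.43 and 3.35 in part 10 and 2.38 and 2.34 at 800 to 1000 bp past the end. At 1876 enriched genes with neither neighbour enriched, the flanks were lower, with 1.58 and 1.48 upstream and 1.08 and 1.01 past the end, while part 4 had 5.85 and 6.79. In 648 enriched genes over 3000 bp the highest value lay in part 2, at 5.68 and 6.08, and part 8 had 4.31 and 4.43. In 2341 enriched genes of 500 to 1500 bp it lay in part 5, at 6.80 and 7.87. Both replicates placed the highest part alike in each of these sets.

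The 16780 depleted genes were likewise called from the span, so their low ratio there is a description. The ratio was 0.681 and 0.683 at 801 to 1000 bp upstream and 0.147 and 0.124 in the last 200 bp before the start. It rested between 0.124 and 0.201 in replicate 1 and between 0.101 and 0.208 in replicate 2 within the span, and was 0.507 and 0.518 at 800 to 1000 bp past the end. Over the genome, exons of protein-coding genes had a ratio of 1.04 and 1.13, against 0.707 and 0.639 for introns, 1.11 and 1.01 for the 1 kb upstream and 1.24 and 1.13 for the rest of the genome outside genes. Exons were below the rest of the genome in replicate 1 and level with it in replicate 2, and these parts were set without a choice of genes by their reads.

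**Figure D5:**
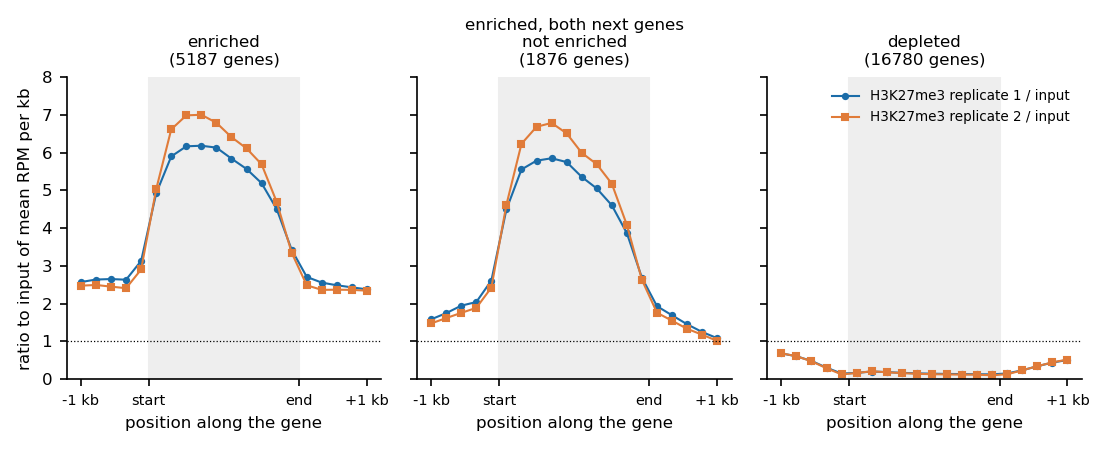
Ratio of H3K27me3 ChIP to input along protein-coding genes of at least 500 bp (x axis, 1 kb upstream in steps of 200 bp, 10 equal parts of the span and 1 kb downstream; y axis, ratio of mean RPM per kb), replicates 1 and 2, for enriched genes, enriched genes with neither neighbour enriched, and depleted genes. Enriched genes reach 6.19 and 7.01 in part 4, and depleted genes stay under 0.21 within the span with total-read scaling.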

How the data were processed

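Per the labels, libraries were sequenced on an Illumina Genome Analyser IIx, and the authors mapped reads with Bowtie 0.12.7 to TAIR10, retaining perfectly and uniquely mapped reads. SICER 1.1 is also named in the submitters' processing notes, and its output was not used. The deposited files list 1 mapped read per line, so their unit is a count of reads, and no normalization was applied. The deposited score column is 0 for every read and was not used. Reads of 37 bp were shifted 75 bp toward the fragment centre and counted once per position and strand over gene spans of the RefSeq annotation of TAIR10.1, regardless of strand. Depth was 2115598 to 4369915 distinct reads, and intervals of counting error cover no other error. A repeated position can also hold separate molecules, so counts of strongly marked genes may be compressed.

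Genes with at least 10 distinct input reads were tested with the quasi-likelihood test of edgeR 4.0.16 in R 4.3.3, for 2 ChIP libraries against 1 input, with total distinct reads as library size and p-values adjusted after Benjamini and Hochberg across every tested gene. The script was tested on simulated counts. Alternatives were all reads, no shift, TMM, no or a higher input filter, flanks of 500 bp, thinned libraries, DESeq2 1.42.0, other folds, another pseudocount, and each replicate alone. Named genes were the 12 highest and 4 lowest protein-coding genes with at least 30 input reads, up to 3 highest and 2 lowest of each of 46 lists, and all members of lists of up to 20 genes. From these a selection is given. Members and lists were chosen with earlier results of these data known. The 3 libraries of the brm mutant were left out. Some promoter windows are not reported here.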

Additional observations from a re-analysis of the deposited data

How the results depend on the processing

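The count of enriched genes was 6320 with total reads and between 5371 and 7140 in all alternatives except TMM (10071), the size factors of DESeq2 (9118), thinning to the smallest library (3482), a 4-fold threshold (3598) and a minimum of 30 input reads (4988, all of them among the 6320). Depleted genes were 4261 with TMM, 9911 with thinned libraries, 83 with the size factors of DESeq2 and 12199 with DESeq2 on total reads. Replicate 2 or replicate 1 alone was called by the fold threshold without the test, so all 6320 genes stay enriched by construction. Enriched genes were then 6605 to 6774 and depleted genes 23020 to 23180. The enriched share was 20.9% to 21.5% of protein-coding genes and 4.23% to 4.29% of pseudogenes. It was 4.27% to 4.69% of pericentromeric genes and 20.9% to 21.4% of arm genes. The median log2 ratio was then -2.12 to -2.09 over all genes, -2.28 to -2.15 in pericentromeric bins, 0.01 to 0.02 in arm bins and -0.22 to -0.09 at the ends. The enriched share of protein-coding genes was 31.4% with TMM, 12.6% thinned and 11.8% at 4-fold, and that of arm genes 31.5%, 12.4% and 11.4%. The share of pseudogenes was 8.32% with TMM, 6.78% with the size factors of DESeq2, 2.06% thinned and 1.69% at 4-fold, and that of pericentromeric genes 9.03%, 7.64%, 2.58% and 1.90%. The median log2 ratio of all genes was -0.37 with TMM and -2.28 with a pseudocount of 0.1 RPM. In bins it was -2.33 with all reads and -0.31 with TMM in pericentromeres, 0.036 and 1.92 in arms, and 1.76 with TMM at the ends. With TMM 7 list medians changed sign: bHLH, TCP, defensin-like, CRK, NLR, UGT and GST. Between 32 and 34 of the 46 lists lay above the share of all genes in every alternative. Among the genes given with values, ABI5 alone changed sign, at 0.015 with the size factors of DESeq2. Leaving out the 3 bins of high input on chromosome 2, chosen after seeing the data, gave 6242 enriched genes. No paired analysis was possible because the input is 1 library with no replicate number. Depth limits genes with few input reads: 3411 annotated genes could not be tested.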

Other observations

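Several further regions had high H3K27me3 over 100 kb, some with members of the lists above, and their genes were chosen after their values were seen. The bin at chr1:24700001-24800000 had a ratio of 3.35 and 2.99, and 15 of its 23 protein-coding genes were enriched, among them MYB113, MYB114 and MYB90, regulators of anthocyanin synthesis, and RHD6, a regulator of root hairs. The bin at chr5:9000001-9100000, at 3.05 and 2.91, had 13 of 21 genes enriched, including TGG1 and TGG2, the myrosinases that act on glucosinolates. The bin at chr4:10700001-10800000, at 2.85 and 3.02, held the iron transporter genes IRT1 and IRT2 beside the chitinase-type run, with 14 of 26 genes enriched.

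The bin at chr5:17000001-17100000 had a ratio of 3.08 and 3.03, although 6 of its 13 tested protein-coding genes were enriched. These include MRN1, a triterpene synthase gene, with CYP705A12 and CYP71A16. All of these bins lie in chromosome arms, where 62 of 972 bins were at least 2-fold over input in both replicates.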
